A study of Mus musculus with 12 samples.

Results

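Dual-specificity MAP kinase phosphatases are enzymes that remove both the phosphate on threonine and the phosphate on tyrosine which switch a MAP kinase on. The 8 genes described here, Dusp1, Dusp2, Dusp4, Dusp5, Dusp6, Dusp7, Dusp10 and Dusp16, were taken by their symbols from the 53465 genes listed, and all 8 passed the filter on low values that 14324 genes passed. RNA came from 12 cultures of mouse BM-DCs, dendritic cells grown over 9 days from bone marrow of wild type C57BL/6 mice (C57BL/6J in the methods of the study) of post-natal week 12 with GM-CSF, a growth factor that also drives macrophage development. The 4 groups of n = 3 cultures were untreated cells (Ctrl), cells given the bacterial cell wall component LPS at 100 ng/ml for 18 h (LPS), cells given oligomers of human recombinant Aβ1-42 at 0.5 µM over 4 days from day 8 of culture (Aβ), and cells given both, with the oligomers starting a day before LPS (Aβ+LPS). The time from the addition of LPS to harvest is not stated directly. With 4 days of oligomers that began a day before LPS, it may have been longer than the 18 h of LPS. No library with a scrambled peptide was analysed here, so Aβ is compared with no peptide. The sources used here do not say whether the 3 cultures of a group came from separate mice, so p-values measure only the spread between these cultures, which may be technical.

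MAP kinases are the last kinases of relay pathways that carry signals from receptors such as TLR4, which recognises LPS, to transcription factors and to proteins that control mRNA stability. The main branches end in ERK, in JNK and in p38, and in dendritic cells they act on maturation and on cytokine genes. Phosphatases of this family end the signal, and many of their genes are themselves switched on by the kinases they inactivate, which makes a negative feedback loop. Dusp1, Dusp2, Dusp4 and Dusp5 encode nuclear enzymes that are inducible by growth factors and stress. Dusp6 and Dusp7 encode cytoplasmic enzymes that prefer ERK, and Dusp10 and Dusp16 encode enzymes that act mainly on JNK and p38.

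Library depth was 23415609 to 29690965 reads in genes (median 26410222). Values are normalized counts, which are reads in a gene divided by a size factor of the library, and changes are log2 fold changes, log2(fc), on the scale of log2(normalized count + 1). They were tested with limma across all 14324 genes and all 12 libraries. A gene was called higher or lower at an adjusted p (adjp, Benjamini and Hochberg) under 0.05. The 95% intervals given below use the limma standard error at 8 degrees of freedom and are wider than limma's own test implies. Defining dendritic cell markers were all detected in every group, with a summed level of 3193 to 3864 CPM (reads scaled so that every library has the same total) over the 12 libraries for the 7 genes of the list. Single markers moved more than this sum, and in Aβ vs. Ctrl 5 were higher and 1 lower, with a median log2(fc) of 0.45 and values of 5.52 for Ccr7 and 1.66 for Zbtb46. Macrophage markers were also high. Their 8 genes summed to 3747 to 3795 CPM in the Ctrl libraries, 3479 to 3571 with LPS, 3025 to 3140 with Aβ and 3042 to 3098 with both, and 7 of them were lower and 1 higher in Aβ vs. Ctrl. The median log2(fc) of that list was −1.49, with −4.68 for Mrc1 and −4.90 for C1qb. Markers of B cells summed to 14.6 to 21.3 CPM in Ctrl and 35.6 to 99.6 in Aβ+LPS. Those of neutrophils summed to 24.4 to 36.7 in Ctrl and 50.7 to 65.4 in Aβ. Mast cell and basophil markers came to 5.39 to 6.55 in Ctrl and 24.6 to 27.6 in Aβ+LPS. T and NK cell markers came to 1.91 to 2.80 in Ctrl and 7.2 to 9.98 in Aβ. Of the defining markers, Ncr1 of NK cells was at 0 in every group, Mpo of neutrophils was at 0 in Ctrl, and Cpa3, Mcpt8, Ms4a2 and Fcer1a of mast cells and basophils were at 0 in Ctrl. In bulk RNA, a change in the number of cells of a type and a change in RNA per cell cannot be told apart, and the part of these markers in the results on the phosphatases was not tested.

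The sequence just upstream of the start site was available from RefSeq (GRCm38.p6) for 7 of the 8 genes. It is shown for Dusp1 and Dusp5, whose windows held a match to a searched motif, and for Dusp16 and Dusp2, which rose most and fell most and held none. Capitals mark the motif matches, and each line runs 5′ to 3′ on the strand of the gene from 250 bases to 51 bases before the RefSeq start.
Dusp1 (chr17:26508523-26508722, minus strand): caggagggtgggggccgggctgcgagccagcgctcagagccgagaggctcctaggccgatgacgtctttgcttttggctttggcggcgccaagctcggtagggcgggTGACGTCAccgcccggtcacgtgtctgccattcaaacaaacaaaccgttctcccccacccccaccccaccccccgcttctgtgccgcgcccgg
Dusp5 (chr19:53528895-53529094, plus strand): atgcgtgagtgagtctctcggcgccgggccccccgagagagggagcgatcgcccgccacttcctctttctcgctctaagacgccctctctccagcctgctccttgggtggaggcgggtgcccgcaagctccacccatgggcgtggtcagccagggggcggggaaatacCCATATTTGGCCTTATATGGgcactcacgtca
Dusp16 (chr6:134792679-134792878, minus strand): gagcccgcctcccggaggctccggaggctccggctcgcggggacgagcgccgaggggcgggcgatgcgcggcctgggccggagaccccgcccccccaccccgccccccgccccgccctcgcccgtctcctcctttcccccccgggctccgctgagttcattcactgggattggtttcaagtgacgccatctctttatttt
Dusp2 (chr2:127335909-127336108, plus strand): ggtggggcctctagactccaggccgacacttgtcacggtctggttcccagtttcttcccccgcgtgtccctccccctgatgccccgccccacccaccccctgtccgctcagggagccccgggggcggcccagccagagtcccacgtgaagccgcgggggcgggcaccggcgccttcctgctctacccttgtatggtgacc
The match upstream of Dusp1 is the cyclic AMP response element TGACGTCA, the binding motif of CREB and related factors, and begins 143 bases before the start. This element was found in 1.55% of the 32851 RefSeq windows of the same length. Upstream of Dusp5 lie 2 CArG boxes, the core of the serum response element, directly next to each other from 82 and from 72 bases before the start, and 1.47% of all windows held at least 1 such box. The 250 bases before the start were searched on both strands for these motifs and for the AP-1 motif TGANTCA (6.75% of all windows), the kappaB motif (7.25%), TATAAA (12.37%) and the ETS motif CCGGAAGT (2.88%). None of the last 4 was found in the windows of the 7 genes. A match is a description of the letters, and the absence of a match concerns only these letters in this window.

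Among the nuclear enzymes, Dusp4 showed the largest rise with LPS alone, and its level rose further with Aβ. Dusp4 (ENSMUSG00000031530) lies on chromosome 8 from 34807297 to 34819894 (GRCm38, the build of all coordinates given here) and encodes a nuclear phosphatase of ERK and JNK. Its normalized counts were 576, 547 and 553 in the Ctrl libraries, 1426, 1375 and 1580.4 in LPS, 2147, 2257 and 2159 in Aβ, and 2136, 2089 and 2261 with both treatments. Ctrl libraries were the lowest, LPS libraries lay in between without overlap, and libraries with Aβ were the highest, with or without LPS. In LPS vs. Ctrl log2(fc) was 1.38 (SE 0.06, adjp = 8.6e-15 from limma), in Aβ vs. Ctrl 1.97 (adjp = 2.9e-18) and in Aβ+LPS vs. LPS 0.57 (adjp = 1.4e-08). Aβ and Aβ+LPS did not differ beyond their spread, with a log2(fc) of −0.02 (95% interval −0.14 to 0.11) for Aβ+LPS vs. Aβ.

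Dusp5, a phosphatase specific for ERK that also holds it in the nucleus, had the same order of levels at a lower abundance. The gene (ENSMUSG00000034765) lies on chromosome 19 from 53529109 to 53542431. Its normalized counts were 253, 216 and 245 for Ctrl, 452, 461 and 399 for LPS, 597, 537 and 584 for Aβ, and 587, 577 and 474 for Aβ+LPS. Neither LPS nor Aβ libraries overlapped with Ctrl, and the Aβ libraries lay above those of LPS, while 1 of the Aβ+LPS libraries, at 474, stood lower than the other two, though still above every LPS library. The mean rose from 238 ± 19.6 in Ctrl to 437 ± 33.5 in LPS and 573 ± 31.4 in Aβ (SD, n = 3 each). These rises had a log2(fc) of 0.87 (SE 0.09, adjp = 7.4e-08 from limma) and 1.26 (adjp = 5.6e-11). On top of LPS, Aβ gave a further 0.32 (adjp = 0.0057). An antisense gene shares 547 exon bases with Dusp5, and whether the counting used the strand is not given in the sources used here, so reads of the pair cannot be told apart with certainty.

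Dusp1 was the most abundant nuclear member in Ctrl and changed least among the members that rose. It encodes a phosphatase of p38, JNK and ERK that limits cytokine production in macrophages and dendritic cells, and lies on chromosome 17 from 26505590 to 26562128 (ENSMUSG00000024190). This GENCODE span reaches further upstream than the RefSeq start, so the sequence shown above as upstream of Dusp1 lies inside it. Untreated libraries had 1499.9, 1402 and 1399.99 normalized counts, LPS libraries 1910.1, 1874 and 1819, Aβ libraries 2018, 1999 and 1893, and Aβ+LPS libraries 1998, 2106 and 1932. All 9 treated libraries lay above all 3 Ctrl libraries, and the Aβ libraries overlapped with those of both other treated groups. Log2(fc) was 0.38 (SE 0.05, adjp = 1.4e-06 from limma) with LPS alone and 0.46 (adjp = 3.5e-08) with Aβ alone. Aβ+LPS vs. LPS gave 0.11 (95% interval −0.01 to 0.22), with an unadjusted p of 0.042 from limma. It did not pass the adjusted test (adjp = 0.071). That call changed when 1 library was left out, since adjp was 0.0441 (log2(fc) 0.14) without Aβ+LPS replicate 3, in a range of 0.0441 to 0.273 over all alternatives. Dusp1 shares 11 exon bases with Ergic1 on the opposite strand.

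Dusp2 went the other way. It encodes a nuclear phosphatase first described in activated lymphocytes, and lies on chromosome 2 from 127336159 to 127338376 (ENSMUSG00000027368). It had 31 to 93 reads per library, and its standard error was the largest of the 8 genes. The Ctrl libraries had 94.25, 103 and 82.8 normalized counts, those with LPS 29.9, 42.7 and 39.0, those with Aβ 40.8, 42.1 and 45.5, and those with both 55.95, 54.3 and 65.3. All treated libraries were below all Ctrl libraries, and the Aβ+LPS libraries lay above those of LPS and of Aβ without overlap. Dusp2 fell by 1.31 on the log2 scale with LPS (SE 0.19, adjp = 5.8e-06 from limma) and by 1.10 with Aβ (adjp = 2.3e-05). With both together the decrease from Ctrl was smaller, with a log2(fc) of −0.66 (adjp = 0.0036). Relative to LPS, Dusp2 was higher in Aβ+LPS by 0.65 (adjp = 0.0057). Relative to Aβ, the difference of 0.44 (95% interval 0.01 to 0.87) had an unadjusted p of 0.03 and did not pass the adjusted test (adjp = 0.7).

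**Figure D1:**
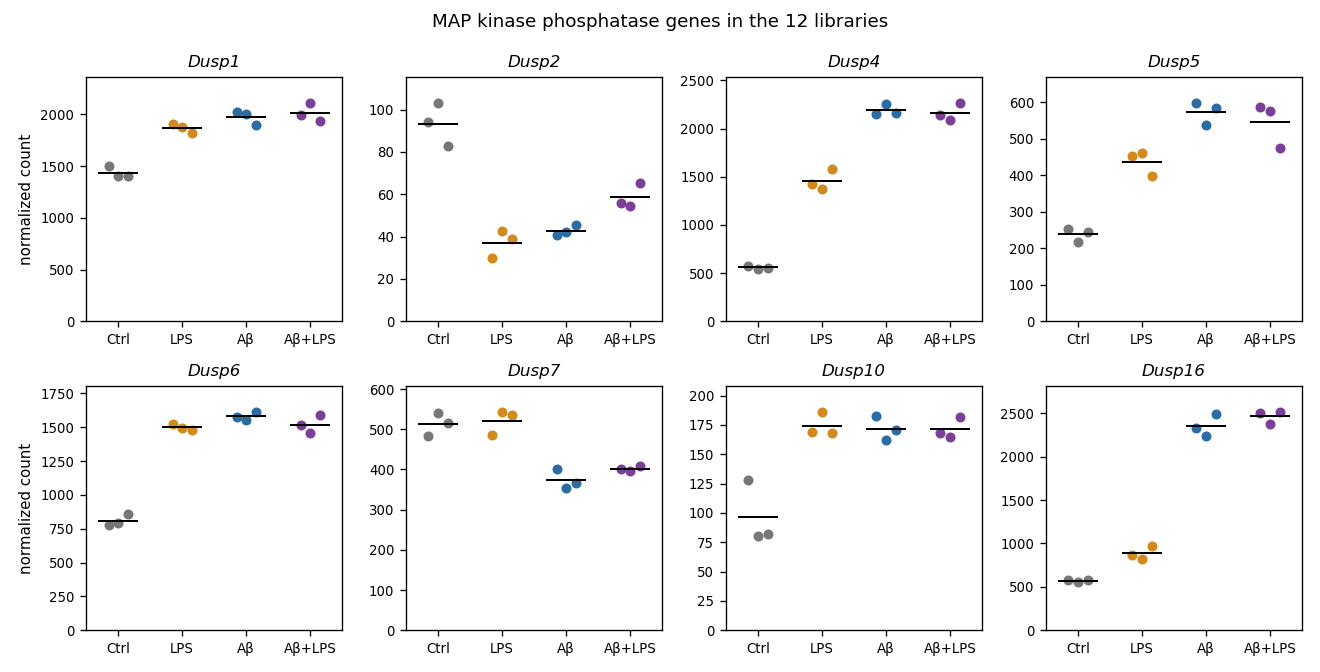
Normalized counts of the 8 genes in the 12 libraries, with 1 panel per gene, 1 point per library, a line at the mean of each group (n = 3) and a vertical axis that starts at 0. Dusp4, Dusp5 and Dusp16 stepped up from Ctrl to LPS and again to Aβ, Dusp1, Dusp6 and Dusp10 were higher in the 3 treated groups, which did not differ by the test, Dusp7 was lower only in the groups with Aβ, and Dusp2 was highest in Ctrl.

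The cytoplasmic ERK phosphatases Dusp6 and Dusp7 differed from each other. Dusp6, a classic feedback inhibitor of ERK whose gene is an ERK target in many cell types, lies on chromosome 10 from 99263231 to 99267489 (ENSMUSG00000019960). It had 781, 789 and 858 normalized counts in the Ctrl libraries, 1523, 1496 and 1483 after LPS, 1578, 1550.2 and 1609.5 after Aβ, and 1516, 1455 and 1587 after both. Each treated library stood above each Ctrl library. Among the treated groups, the Aβ libraries lay above those of LPS, and the Aβ+LPS libraries overlapped with both. The rise was 0.89 on the log2 scale with LPS (SE 0.05, adjp = 5.6e-12 from limma) and 0.96 with Aβ (adjp = 2.8e-13). Between the treated groups no difference passed the test, and the 95% interval for Aβ+LPS vs. LPS ran from −0.10 to 0.14 on the log2 scale.

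Dusp7 did not change detectably with LPS and was lower with Aβ. Its gene (ENSMUSG00000053716) lies on chromosome 9 from 106368632 to 106375724. Normalized counts came to 482, 539.8 and 515 for Ctrl, to 486, 542 and 536 for LPS, to 400.4, 355 and 366 for Aβ, and to 400.05, 396 and 408 for Aβ+LPS. Ctrl and LPS libraries overlapped, and all 6 libraries with Aβ were below all 6 without. LPS vs. Ctrl gave a log2(fc) of 0.03 (95% interval −0.15 to 0.20, adjp = 0.81 from limma). The value was −0.46 (SE 0.08, adjp = 1.6e-05) in Aβ vs. Ctrl and −0.38 (adjp = 0.00023) in Aβ+LPS vs. LPS. Dusp7 was the only one of the 8 genes for which the effect of LPS was not shown to differ with and without Aβ (difference of effects 0.08 on the log2 scale, 95% interval −0.17 to 0.33, adjp = 0.61).

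Of the JNK and p38 phosphatases, Dusp16 showed the largest change of all 8 genes, and it was larger with Aβ than with LPS. Dusp16 encodes a phosphatase that prefers JNK, and its gene lies on chromosome 6 from 134715468 to 134792625 (ENSMUSG00000030203). The Ctrl libraries had 585, 559 and 577 normalized counts, those of LPS 873, 819 and 969, those of Aβ 2331, 2237 and 2488, and those of Aβ+LPS 2506, 2373 and 2509. LPS libraries lay above Ctrl without overlap, and every library with Aβ had at least 2237 normalized counts, while the highest without it had 969. Means were 574 ± 13.0 for Ctrl, 887 ± 76.0 for LPS, 2352 ± 127 for Aβ and 2463 ± 77.5 for both (SD, n = 3 each). Log2(fc) was 0.62 (SE 0.06, adjp = 1.7e-08 from limma) in LPS vs. Ctrl, 2.03 (adjp = 6.6e-18) in Aβ vs. Ctrl and 1.48 (adjp = 5.1e-15) in Aβ+LPS vs. LPS. As a fold, Aβ alone gave 4.09 times the Ctrl level and LPS alone 1.54 times.

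Dusp10, which acts on p38 and JNK and has been linked to T-cell and innate responses in mice, rose with either treatment, and no difference between the treated groups passed the test. The gene (ENSMUSG00000039384) lies on chromosome 1 from 184013302 to 184075636. Ctrl libraries had 128, 80.1 and 81.8 normalized counts, LPS libraries 169, 186 and 168, Aβ libraries 183, 162 and 171, and Aβ+LPS libraries 168, 165 and 182. The 3 treated groups overlapped, and Ctrl replicate 1, at 128, stood above the other Ctrl libraries but below every treated library. LPS alone gave a log2(fc) of 0.88 (SE 0.15, adjp = 4.2e-05 from limma), and Aβ alone gave 0.86 (adjp = 2.5e-05). The 95% interval for Aβ+LPS vs. LPS, −0.36 to 0.32 on the log2 scale, was wider than for Dusp6.

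**Figure D2:**
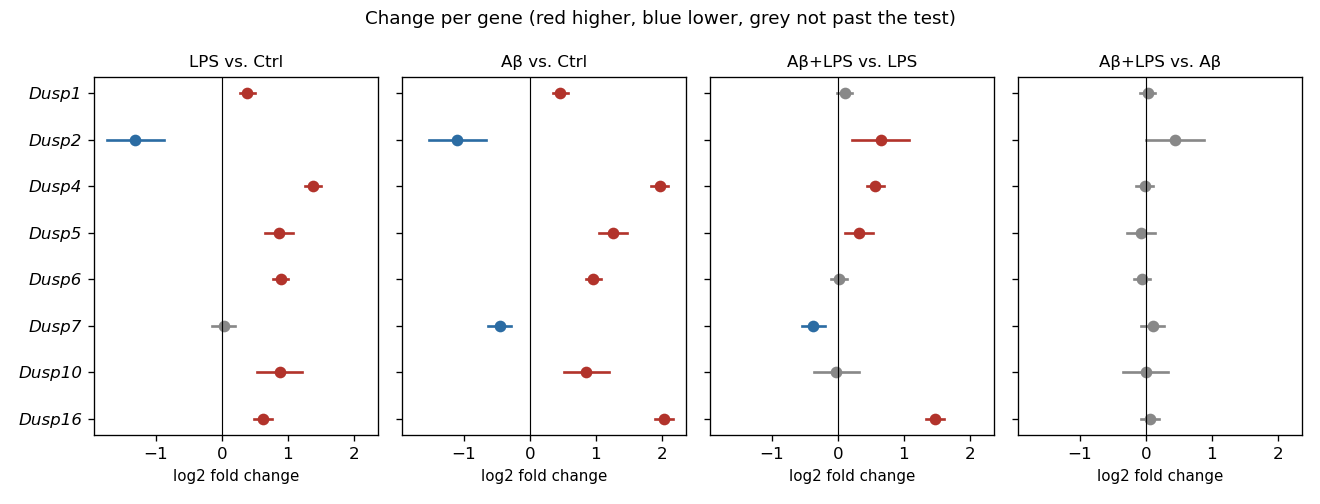
Log2 fold change of each gene in 4 comparisons, with lines for a 95% interval from the limma standard error at 8 degrees of freedom, which is wider than limma's own test implies. Points are red where the gene was higher, blue where it was lower and grey where it did not pass the test. In the last panel, Aβ+LPS vs. Aβ, none of the 8 genes passed the test, and the point of Dusp2 at 0.44 lies farthest from 0.

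Counted over the 8 genes, 6 were higher and 1 (Dusp2) was lower after LPS alone than in Ctrl, where 23.8% of all tested genes were higher and 22.5% lower. After Aβ alone the same 6 were higher, and Dusp2 and Dusp7 were lower, where 35.1% of all tested genes were higher and 33.7% lower. The median log2(fc) of the 8 genes was 0.75 for LPS and 0.91 for Aβ, beside 0.00 and 0.02 over all tested genes. Both comparisons share the Ctrl libraries, so their values stand side by side and are not independent of each other. Aβ+LPS vs. Ctrl had 6 higher and 2 lower (35.5% and 34.3% of all tested genes), with a median of 0.88.

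In Aβ+LPS vs. LPS, which asks what the oligomers add to LPS maturation, Dusp2, Dusp4, Dusp5 and Dusp16 were higher, Dusp7 was lower, and Dusp1, Dusp6 and Dusp10 did not pass the test. Shares among all tested genes were 27.8% higher and 28.3% lower, and the median of the 8 genes was 0.21, beside 0.01 over all genes. Aβ and LPS given alone differed in the same direction for Dusp4 (0.58 on the log2 scale higher in Aβ, adjp = 9.4e-09 from limma), Dusp5 (0.39, adjp = 0.0011), Dusp16 (1.41, adjp = 1.4e-14) and Dusp7 (−0.48, adjp = 1.4e-05). That comparison had 3 genes higher and 1 lower of the 8, and 27.0% and 27.2% of all tested genes. The comparisons with LPS share the LPS libraries.

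LPS given to cells that had Aβ changed none of the 8 genes by the adjusted test. In Aβ+LPS vs. Aβ, limma called 0 of the 8, as did edgeR on the recovered reads. DESeq2 called none either, but it gave no adjusted p for Dusp2 and so did not test that gene at the threshold. By limma, 1 of the 8 (Dusp2) had an unadjusted p under 0.05. Few genes passed at all in this comparison, with 0.0279% of all tested genes higher and 0.112% lower. The estimates of the 7 other members lay between −0.07 and 0.11 on the log2 scale. Without Aβ, LPS had moved Dusp4 by 1.38, and with Aβ present the interval for its effect was −0.14 to 0.11.

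By the interaction term, which subtracts LPS vs. Ctrl from Aβ+LPS vs. Aβ, the effect of LPS differed with and without Aβ for 7 of the 8 genes. It was negative for 6 genes, by −1.40 for Dusp4, −0.95 for Dusp5, −0.95 for Dusp6, −0.88 for Dusp10, −0.56 for Dusp16 and −0.35 for Dusp1. It was positive for Dusp2, at 1.75 (SE 0.27, adjp = 2.3e-05 from limma), whose fall with LPS was not repeated in the presence of Aβ. Over all tested genes the interaction was positive in 15.2% and negative in 16.6%. The median of the 8 genes was −0.72, beside −0.01 over all genes. The term holds LPS vs. Ctrl with its sign reversed, so these calls are not independent of those for LPS vs. Ctrl, which named the same 7 genes.

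The 4 levels of each gene could be put in order, with neighbours that did not differ by the test named together. For Dusp4, Dusp5 and Dusp16 the order was Ctrl, then LPS, then Aβ and Aβ+LPS together. For Dusp1, Dusp6 and Dusp10 it was Ctrl, then all 3 treated groups together. For Dusp7 it was Aβ and Aβ+LPS, then Ctrl and LPS. For Dusp2, LPS and Aβ were lowest, Aβ+LPS was above LPS but not above Aβ by the adjusted test, and Ctrl was highest. The distance between the lowest and the highest group mean, on the log2 scale, was widest for Dusp16 (Ctrl to Aβ+LPS, 4.29-fold), then 1.97 for Dusp4, 1.31 for Dusp2 and 1.26 for Dusp5, and 0.48 to 0.96 for the other members. Among all tested genes, 88.9% had a smaller distance than Dusp16 and 87.6% a smaller one than Dusp4, while Dusp1 and Dusp7 lay near the middle with 44.7% and 44.0%.

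Levels of different genes were compared per kb of exon. In Ctrl, Dusp1 stood highest at 433 ± 17.2 normalized counts per kb, followed by Dusp6 at 258 ± 13.5 and Dusp4 at 204 ± 5.54 (SD, n = 3 each). Dusp10 and Dusp2 were the lowest, at 31.7 ± 8.88 and 46.6 ± 5.03. In Aβ, Dusp4 stood highest at 798 ± 22.1, above Dusp1 at 595 ± 20.4, and Dusp16 reached 302 ± 16.2 from 73.6 ± 1.67 in Ctrl. The level summed over the 8 genes was 1296 ± 25.2 per kb for Ctrl, 2098 ± 19.7 for LPS, 2620.0 ± 15.3 for Aβ and 2624 ± 21.6 for both treatments. Of that sum, Dusp1 made up 33.4 ± 0.789% in Ctrl and 22.7 ± 0.748% in Aβ, and Dusp4 went from 15.7 ± 0.143% to 30.5 ± 0.995%. Dusp16 held 5.67 ± 0.041% in Ctrl, 5.42 ± 0.413% in LPS and 11.5 ± 0.612% in Aβ. The share of Dusp7 was 11.8 ± 0.889% in Ctrl, 7.41 ± 0.434% in LPS and 4.25 ± 0.246% in Aβ, where its own level was lower and the sum was larger. These levels and shares are a description of RNA, without a test.

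**Figure D3:**
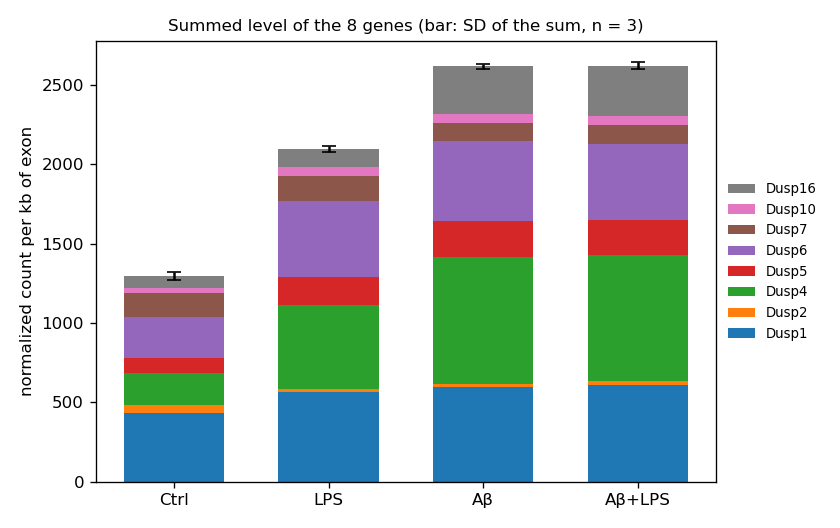
Mean level of the 8 genes in each group, stacked, in normalized counts per kb of exon, with error bars for the SD of the sum over n = 3 libraries. The sum went from 1296 in Ctrl to 2098 in LPS and to 2620.0 and 2624 in Aβ and Aβ+LPS, where the Dusp4 and Dusp16 segments are the ones that grew most from LPS.

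For the 4 members with a distance over 1 on the log2 scale, the genes whose pattern over the 12 libraries was most alike were found by the root mean square difference of centred log2 values. Nearest to Dusp4 were Met, the receptor of hepatocyte growth factor (0.073), Ppfibp2, a liprin (0.089), and Tgfbi, an extracellular matrix protein (0.093). Nearest to Dusp16 were Rab11fip1, a regulator of vesicle recycling (0.071), Dnajc1, a co-chaperone of the endoplasmic reticulum (0.077), and Ier3, an immediate early gene (0.085). Rab11fip1 had mean normalized counts of 978 (Ctrl), 1656 (LPS), 4340.3 (Aβ) and 4583 (Aβ+LPS). Dusp5 had Tchh (0.11), Cox11, an assembly factor of cytochrome c oxidase (0.113), and Ahrr, the repressor of the aryl hydrocarbon receptor (0.119). Dusp2, with its lower counts, had less close neighbours, namely Serpinb1a, an inhibitor of neutrophil proteases (0.193), Fgd2, an exchange factor of Cdc42 (0.211), and Hdac9, a histone deacetylase (0.227). Likeness was measured over libraries of 4 groups that differ from each other in many genes.

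Other genes of the MAP kinase pathways were counted by lists. The shares among all tested genes stand beside the counts. Of the kinases themselves, 9 of 14 listed genes were tested, and LPS alone left 1 higher and 4 lower than Ctrl (23.8% and 22.5% of all genes), with a median log2(fc) of −0.10. In Aβ+LPS vs. LPS, 5 rose and 1 fell (27.8% and 28.3% of all genes), with a median of 0.14, and the lowest adjusted p belonged to Nlk, a Nemo-like kinase (0.29), Mapk13, which encodes p38 delta (1.16), and Mapk8, which encodes JNK1 (0.27). Of the substrates of the phosphatases, Mapk14 and Mapk3 were looked up after their values were seen. Mapk14, which encodes p38 alpha, was lower with LPS alone and with Aβ alone, with log2(fc) values of −0.14 and −0.29. Mapk3, which encodes ERK1, did not pass the test in either (0.00 and −0.08).

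Among the upstream kinases, all 7 MAP kinase kinases were tested. In Aβ vs. Ctrl 4 were higher and 1 lower (median 0.26, beside 35.1% and 33.7% of all genes), and in Aβ+LPS vs. LPS 3 and 1 (median 0.17, beside 27.8% and 28.3%), which is close to the background for so few genes. The lowest adjusted p in Aβ+LPS vs. LPS belonged to Map2k1, the kinase MEK1 of the ERK branch, which rose by 0.60 on the log2 scale, and to Map2k3 and Map2k6 of the p38 branch, which rose by 0.42 and 1.29. Of 19 listed MAP kinase kinase kinases 17 were tested, and in Aβ+LPS vs. LPS 11 rose and 3 fell (median 0.20, beside the same 27.8% and 28.3%), among them Map3k5 (0.64), Map3k14 (0.59) and Braf (0.39). In LPS vs. Ctrl the counts were 4 and 3 of 17 (23.8% and 22.5% of all genes), with a median of 0.03. Of 10 tested kinases activated by MAP kinases, 3 rose and 4 fell in Aβ+LPS vs. LPS, near the shares of all genes, and Mapkapk2, the kinase through which p38 stabilises cytokine mRNA, had 4752 normalized counts with LPS and 10493 with both, a log2(fc) of 1.14 (SE 0.04, adjp = 1.8e-15 from limma). Mapkapk3 and Rps6ka4 rose by 0.39 and 0.37.

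Other feedback genes of the pathway moved in both directions. Of 9 feedback inhibitors of Ras and ERK, such as sprouty and Spred proteins, 5 rose in LPS vs. Ctrl (median 0.28, beside 23.8% of all genes). In Aβ vs. Ctrl 6 rose and 1 fell (median 0.67, beside 35.1% and 33.7%), and in Aβ+LPS vs. LPS 5 rose and 2 fell (median 0.22, beside 27.8% and 28.3%). In the last comparison Spred1 rose by 0.57 on the log2 scale. Il17rd rose by 3.18, from 8.1 to 77.2 normalized counts, while Spry3 had a log2(fc) of −1.83. Of 16 ERK target and immediate early genes, 9 were higher and 6 lower in Aβ vs. Ctrl (35.1% and 33.7% of all genes), and 7 and 6 in Aβ+LPS vs. LPS (27.8% and 28.3%). Ier3 and Phlda1 rose there by 1.54 and 1.24, and Jun, a subunit of AP-1, had −0.70. Of 6 tested phosphatases of MAP kinases from other families, 2 rose and 2 fell in Aβ+LPS vs. LPS, near the same shares, and Ptpn7, a tyrosine phosphatase of ERK and p38 in blood cells, had −0.48.

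Within the wider dual-specificity family, changes with Aβ were mixed. Dusp8 and Dusp9, the other catalytically active MAP kinase phosphatases, did not pass the test with LPS alone (log2(fc) 0.03 and 0.03). In Aβ vs. Ctrl, Dusp8 fell from 61.9 ± 13.1 to 21.3 ± 4.21 normalized counts, a log2(fc) of −1.49 (SE 0.26, adjp = 3.4e-05 from limma), and Dusp9 rose from 123 ± 2.52 to 178 ± 0.761, a log2(fc) of 0.53 (adjp = 0.0017). Dusp9 did not pass in Aβ+LPS vs. LPS (0.26, adjp = 0.11) or in Aβ+LPS vs. Ctrl (0.29, adjp = 0.064), and its Aβ+LPS libraries ranged from 123 to 186.5. Of 15 atypical dual-specificity phosphatases, small enzymes without the kinase-binding domain, 11 were tested, and 5 were higher and 3 lower in Aβ vs. Ctrl, near the 35.1% and 33.7% of all genes, with a median of 0.02. Dusp3, the most abundant atypical member named here, had mean normalized counts of 9373 (Ctrl), 6499 (LPS), 4674 (Aβ) and 4695 (Aβ+LPS), and its log2(fc) in Aβ+LPS vs. LPS was −0.47 (SE 0.04). In that comparison Dusp23 rose by 0.47 on the log2 scale, and Dusp13 had −0.48. The counts of all these lists describe their members and were not tested against other genes.

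**Figure D4:**
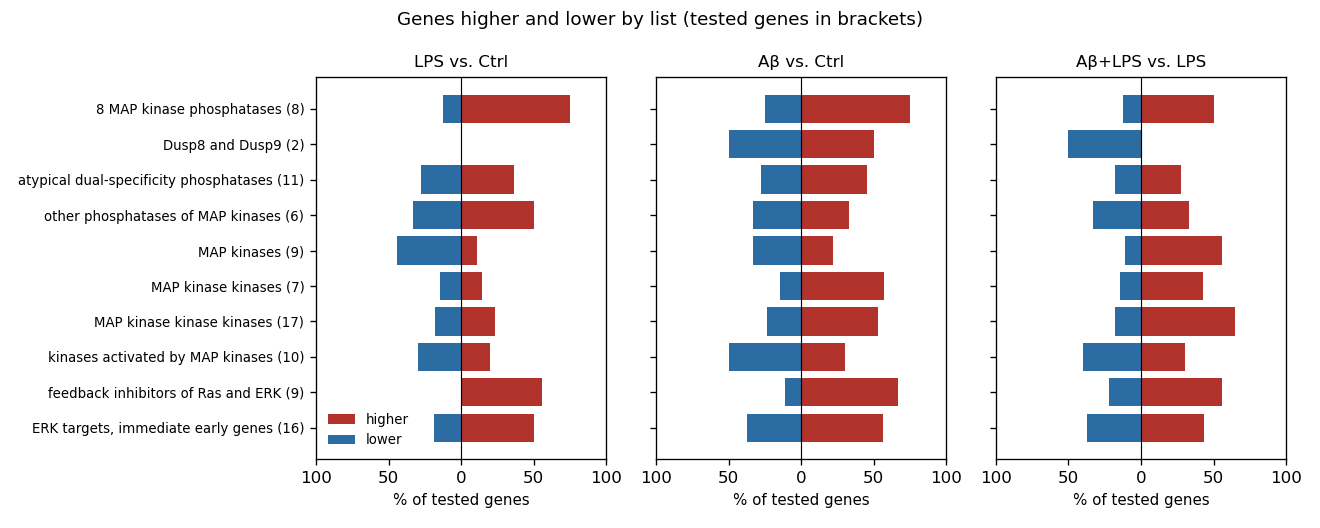
Share of tested genes of each list that were higher (red, to the right) or lower (blue, to the left) at an adjusted p under 0.05, with the number of tested genes in brackets. Of the 8 MAP kinase phosphatases, 6 were higher with LPS alone, 6 with Aβ alone and 4 with Aβ added to LPS, and of the 9 MAP kinases 1, 2 and 5, where 23.8%, 35.1% and 27.8% of all tested genes were higher.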

How the data were processed

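RNA of 12 BM-DC cultures was sequenced from stranded poly(A) libraries with single reads of 100 bp. Per the submitters' processing notes, FastQC 0.11.5, HISAT2 2.1.0 (GRCm38), featureCounts 1.6.0, DESeq2 and R 3.4.4 were used. The expression signal per library, as deposited, is a read count per gene over the library's DESeq2 size factor (0.874 to 1.16), computed by the authors. Whole reads were recovered from it, with 100% of values within 0.05 of a whole number. The log2 fold changes, test scores and p-values that the authors deposited hold their own DESeq2 comparisons, and the term columns mark gene ontology members. None of them was used. Of the 6 tables read, each holds the libraries of the groups it compares, and the normalized counts of a library were the same in every table that holds it.

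Genes entered the test when the mean of 1 group or more reached 10. Values were log-transformed as log2(normalized count + 1), and limma 3.58.1 (trend option) was run once on the 12 libraries with a group term alone, leaving 8 residual degrees of freedom. p-values were two-sided and adjusted over all 14324 genes. edgeR 4.0.16 and DESeq2 1.42.0 on the recovered reads, TMM scaling, pseudocounts of 0.5 and 5, no filter, a mean of 50, a fit of only the groups compared, a replicate block and leaving out each library were the alternatives. The fit was tested on simulated data. Software was R 4.3.3 and Python 3.11.15 with NumPy 2.4.6, pandas 2.3.3 and Matplotlib 3.10.9. Coordinates and exon lengths are from GENCODE for GRCm38, promoters from RefSeq.

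All 8 members are named, with Dusp8 and Dusp9, up to 3 genes per list with the lowest adjusted p in Aβ+LPS vs. LPS, and the 3 genes most like a member (among genes whose mean reached 100 in some group). Mapk14, Mapk3 and Dusp14 were named outside this rule, after their values were seen, and markers from Aβ vs. Ctrl or for a count of 0. The members and lists were chosen with earlier results of these data known.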

Additional observations from a re-analysis of the deposited data

Results flagged for a closer look

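For 7 of the 8 phosphatase genes the effect of LPS on cells with Aβ differed from its effect on cells without, by the interaction term of limma (differences on the log2 scale, adjusted over all tested genes). Of all tested genes, 15.2% had a positive and 16.6% a negative difference past the same threshold. The difference was −1.40 for Dusp4 (adjusted p = 6.9e-12), −0.95 for Dusp6 (adjusted p = 1.6e-09), −0.95 for Dusp5 (adjusted p = 6.4e-06), −0.56 for Dusp16 (adjusted p = 2.2e-05), −0.88 for Dusp10 (adjusted p = 0.0024) and −0.35 for Dusp1 (adjusted p = 0.00047). Dusp2 had the opposite sign, with 1.75 (adjusted p = 2.3e-05). In each case LPS moved the gene without Aβ, and its effect with Aβ did not pass the adjusted test. The differences are therefore not independent of the calls in LPS vs. Ctrl.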

How the results depend on the processing

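Calls on the 8 genes kept their direction and their side of the threshold in all 496 combinations of gene, comparison and the 9 settings other than leaving out a library. For Dusp2 in Aβ+LPS vs. Aβ, DESeq2 gave no adjusted p. That combination was counted as not passing and is not a test of the gene. Leaving out each of the 12 libraries kept 657 of 672. In 14, an estimate that had not passed the test changed sign, and Dusp1 passed it in Aβ+LPS vs. LPS without Aβ+LPS replicate 3. Without 1 library, the numbers of members changed were 7 to 7 in LPS vs. Ctrl, 8 to 8 in Aβ vs. Ctrl, 5 to 6 in Aβ+LPS vs. LPS, 0 to 0 in Aβ+LPS vs. Aβ, 4 to 4 in Aβ vs. LPS, 8 to 8 in Aβ+LPS vs. Ctrl and 7 to 7 for the interaction. Over all genes, Aβ+LPS vs. Aβ had 20 calls by limma, 30 by edgeR and 47 by DESeq2.

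With the replicate block, 5 of the 8 genes changed in Aβ+LPS vs. LPS and 8111 genes in all, beside 5 and 8034 without it, and no call on a member changed. Deviations of same-numbered libraries had correlations of −0.086 to 0.037 over 18 pairs, and 0 of the 12 libraries correlated best with its own number. These values gave no sign that the numbers pair the cultures. They cannot exclude a pairing with a small shared effect, and the sources used here do not say how the cultures were set up. Depth limits Dusp2 most, with 31 to 93 reads per library.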
